A study of Mus musculus with 20 samples.

Results

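Ovary RNA of the ptLNPIFN-Y group was compared with ovary RNA of the Control group, with 5 libraries a side. Members were the libraries that carry those 2 group labels, 10 of the 20 in the series, and the comparison covers the genes of the deposited expected-count table that passed a low-count filter, 15723 of 20960. The ptLNPIFN-Y libraries are labelled as ovarian cancer treated with ptLNPIFN-Y. The Control libraries carry no disease or agent label, since their treatment field reads N/A. The Model group (ovarian cancer, no agent named) and the LNPIFN-Y group (ovarian cancer with LNPIFN-Y), of 5 libraries each, are not members. They serve below to split the comparison into steps and to compare the particle groups. Their libraries also entered the low-count filter and the fit, and so its estimate of the spread.

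The series text describes C57BL/6 mice whose ovarian bursa was expanded with a ptLNP carrying the FSH subunits and then received ID8Luci cells, a luciferase-marked form of a mouse ovarian surface epithelial line that became tumour-forming in culture. Tumours grew for 60 days, and injections into the peritoneum were given every 3 days from day 62 to day 95, with an endpoint at day 97. There, ptLNPIFN-γ is a peptide-targeted lipid nanoparticle that carries interferon-γ mRNA. The text names a sham control, which it lists among arms drawn from tumour-bearing mice, and no label calls the Control ovaries free of tumour. It also describes single-cell sequencing and does not tie these days or arms to the bulk libraries analysed here, so whether the Control ovaries had the bursa procedure is not stated. It does not describe LNPIFN-Y, and no group is labelled as given a particle without the mRNA. The difference between ptLNPIFN-Y and Control therefore joins the tumour model, the particle and its cargo, which cannot be told apart from these 2 groups alone. The animals' age is not given. Nothing in the labels ties each library to an animal of its own, so p-values measure the spread between these samples, which may be technical.

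Interferon-γ is a cytokine of T and NK cells. It binds the receptor of Ifngr1 and Ifngr2, which signals through the kinases JAK1 and JAK2 to transcription factors that bind GAS elements near target genes. One of the first targets is the transcription factor IRF1, which binds ISRE elements and switches on genes for antigen presentation, chemokines and cell-autonomous defence, as well as the inhibitory ligand PD-L1.

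Total expected counts lay between 16496793 and 17218043 over the 5 ptLNPIFN-Y libraries, against 16613167 to 16998557 over the 5 Control libraries. The labels put all 20 libraries in batch 1. On the first principal component of log2 CPM (counts after TMM scaling, set to a common library total), which held 52.7% of the variance, the ptLNPIFN-Y libraries lay between −1.81 and 107.7 and the Control libraries between −102 and −39.6. Ovary markers were detected in both groups. The egg-coat gene Zp3 had 30.1, 10.3, 9.71, 4.93 and 0 CPM in the ptLNPIFN-Y libraries and 27.5, 8.08, 34.1, 39.8 and 35.3 CPM in the Control libraries. Zp3 and Zp2 were thus at 0 in ptLNPIFN-Y library 5, where the granulosa hormone gene Amh had 8.51 CPM and the steroidogenic gene Star 171 CPM. Control library 5 stood apart from the other Control libraries for several inflammatory genes, such as Hc, S100a9 and Junb. Without it 1627 genes were higher and 892 lower by the test used below. Because whole tissue was sequenced, fewer cells of a type and less RNA per cell cannot be told apart.

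Of 15723 genes tested, 1916 were higher in ptLNPIFN-Y than in Control and 847 were lower (edgeR's quasi-likelihood test, adjusted p under 0.05). These are 12.2% and 5.39% of the genes tested. In 1740 genes every ptLNPIFN-Y library was above every Control library, and in 888 every one was below, which is 11.1% and 5.65% of the genes tested. The higher genes moved further than the lower ones: their median log2 fold change was 1.44, against −0.68 for the lower genes. Of the higher genes, 1189 differed at least 2-fold, 707 at least 4-fold and 170 at least 16-fold, while of the lower genes 301, 78 and 6 reached those folds. The balance depended on the scaling. With library size alone 1491 genes were higher and 2241 lower, and with upper-quartile scaling 1682 were higher and 1423 lower. Those scalings moved the median log2 fold change of all tested genes to −0.18 and −0.11, against −0.02 with TMM. The count of lower genes also moved with single libraries: it was 499, 455 and 453 without Control library 1, 2 or 3, and 1417, 500, 357 and 303 without ptLNPIFN-Y library 1, 2, 4 or 5. The count of higher genes stayed between 1300 and 2312 in those fits.

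**Figure D1:**
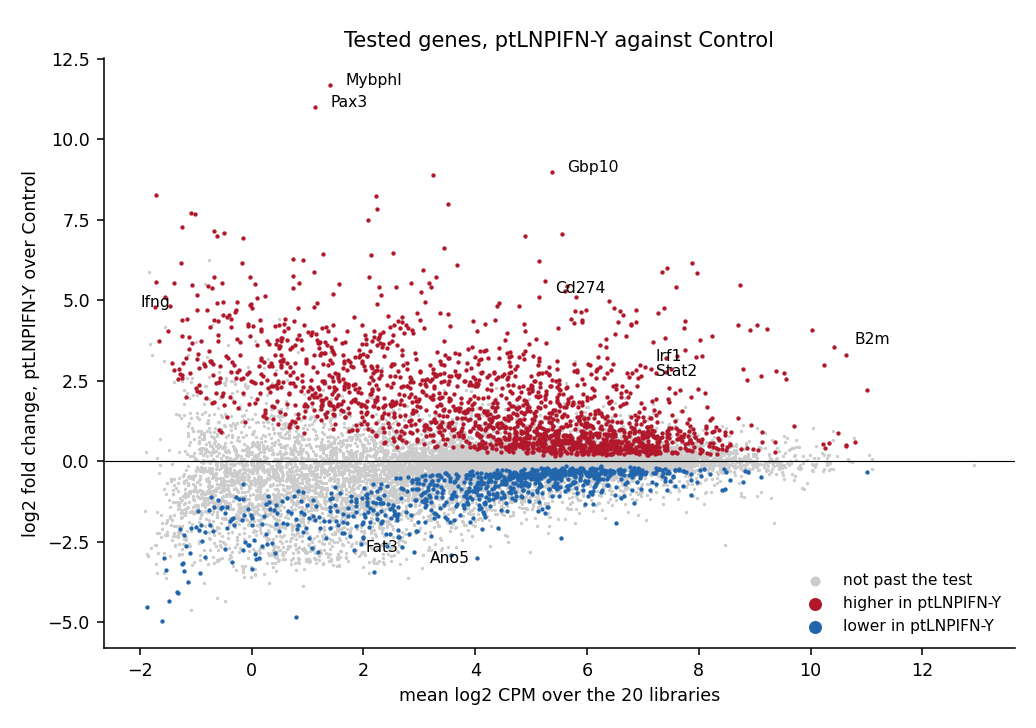
Log2 fold change of ptLNPIFN-Y over Control (vertical) against the mean log2 CPM over the 20 libraries (horizontal), 1 point per tested gene. Red points are the 1916 genes past the test that were higher in ptLNPIFN-Y, blue points the 847 that were lower; red points reach beyond 8 on the log2 scale, and most blue points lie between 0 and −2.5.

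The 10 genes furthest above Control, taken among those past the test with no overlap between libraries and a mean log2 CPM of at least 1 over the 20 libraries, were Mybphl, Pax3, Gbp10, Gbp2b, Ubd, AA467197, Apol11b, H2-Eb2, Cxcl9 and Oas3. Gbp10 (chr5:105215699-105239533, GRCm38) and Gbp2b (chr3:142594816-142619179) encode guanylate-binding proteins, GTPases that attack intracellular pathogens. Ubd (chr17:37193892-37196101) encodes a ubiquitin-like modifier, H2-Eb2 (chr17:34325503-34341410) a class II MHC chain, and Oas3 (chr5:120753098-120777684) an enzyme of the antiviral 2′-5′ oligoadenylate pathway. Cxcl9 (chr5:92321331-92328079) encodes a chemokine that draws T cells through CXCR3, and Apol11b (chr15:77633951-77643286) is a mouse apolipoprotein L family gene.

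A RefSeq promoter table of the same build, GRCm38.p6, holds windows of 8 of these 10 genes, each running from 250 bases before to 50 bases after a gene start. Pax3 and Gbp10 had none. The windows were searched on both strands for the GAS core TTCNNNGAA and for GAAANNGAA, the first 9 letters of the ISRE core, and matches of both kinds may overlap. Windows of Gbp2b, Apol11b, Cxcl9 and Oas3 held a match. Their 250 bases upstream of the gene start are printed 5′ to 3′ on the gene's strand, with every match in capitals, to show where the letters fall in the genes that were furthest above Control. They span chr3:142594597-142594846 (plus strand), chr15:77643287-77643536 (minus), chr5:92328080-92328329 (minus) and chr5:120777660-120777909 (minus). The gene starts are those of the promoter entries. For Gbp2b and Oas3 these starts lie inside the gene coordinates given above, so a few of the printed bases fall within those coordinates.
Gbp2b: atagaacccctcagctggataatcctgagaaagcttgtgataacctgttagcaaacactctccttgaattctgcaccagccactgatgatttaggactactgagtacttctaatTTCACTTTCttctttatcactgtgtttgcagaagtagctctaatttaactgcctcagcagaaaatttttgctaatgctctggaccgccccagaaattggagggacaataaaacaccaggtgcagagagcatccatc
Apol11b: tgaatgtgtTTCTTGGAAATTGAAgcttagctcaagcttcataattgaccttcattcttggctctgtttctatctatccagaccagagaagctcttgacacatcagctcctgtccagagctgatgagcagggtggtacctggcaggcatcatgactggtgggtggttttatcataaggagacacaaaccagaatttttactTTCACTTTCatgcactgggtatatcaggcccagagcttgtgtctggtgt
Cxcl9: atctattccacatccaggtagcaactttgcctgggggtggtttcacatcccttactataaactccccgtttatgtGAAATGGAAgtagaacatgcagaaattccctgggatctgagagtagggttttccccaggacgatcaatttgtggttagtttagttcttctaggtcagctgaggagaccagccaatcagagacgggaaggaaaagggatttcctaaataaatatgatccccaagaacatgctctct
Oas3: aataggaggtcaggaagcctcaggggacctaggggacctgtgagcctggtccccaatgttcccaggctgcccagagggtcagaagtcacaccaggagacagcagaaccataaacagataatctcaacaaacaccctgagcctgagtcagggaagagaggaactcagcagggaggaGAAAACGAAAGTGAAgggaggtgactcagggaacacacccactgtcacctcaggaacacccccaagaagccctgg

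The Apol11b window held 1 GAS match that overlaps 1 of its 2 ISRE matches, and the Oas3 window 2 ISRE matches that overlap. Gbp2b and Cxcl9 held 1 ISRE match each. Over all tested genes, 12454 had a promoter entry, with 15834 windows. A GAS match stood in 8.76% of the windows of higher genes, in 20.7% of those of genes at least 16-fold higher and in 6.19% of those of lower genes, against 6.95% of all windows. An ISRE match stood in 14.2%, 31.9% and 6.76% of the same sets, against 7.41% of all windows. Both motifs stood together in 2.18% of windows of higher genes, in 9.63% of windows of genes at least 16-fold higher, in 0 of the 888 windows of lower genes and in 0.796% of all windows. These are shares of letters in fixed windows, not binding sites.

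The transcript of Ifng itself was scarce. Its expected counts were 17, 18, 20, 23 and 11 in the ptLNPIFN-Y libraries, against 0, 0, 1, 1 and 2 in the Control libraries. Every ptLNPIFN-Y library lay above every Control library, although all values were low. The log2 fold change was 4.42 ± 0.77, where ± is the standard error for a fold change throughout (n = 5 each, edgeR adjusted p = 0.000575). Whether mRNA delivered by the particle would be counted as Ifng is not stated in the sources used here.

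Genes of the signal chain rose together with Ifng, and the median over the list of receptor, JAK-STAT and feedback genes was 1.36 on the log2 scale. Of its 17 tested members 12 were higher and 0 lower. Irf1, the transcription factor named above, had 275.5, 481, 312, 365 and 367 CPM in ptLNPIFN-Y and 44.9, 41.1, 37.9, 46.7 and 54.2 CPM in Control, with no overlap. Its log2 fold change was 3.002 ± 0.23 (edgeR adjusted p = 3.38e-08). Stat2, a transducer of type I interferon signals, had 218.5, 397, 286, 308 and 273 CPM in ptLNPIFN-Y, against 47.7, 39.6, 45.6, 55.4 and 50.3 CPM in Control. Every treated library was above every Control library, and the log2 fold change was 2.64 ± 0.16 (edgeR adjusted p = 2.32e-09). Socs1, the feedback inhibitor of JAK kinases, was higher with a log2 fold change of 3.02 ± 0.34 (edgeR adjusted p = 6.07e-06). The receptor chains differed: Ifngr1 was past the test with a log2 fold change of 0.76 ± 0.21 (edgeR adjusted p = 0.0211), while Ifngr2 had 0.14 ± 0.12 and Jak2 0.64 ± 0.30, neither past it. Jak1, Ptpn2 and Pias1 were the other members not past the test.

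**Figure D2:**
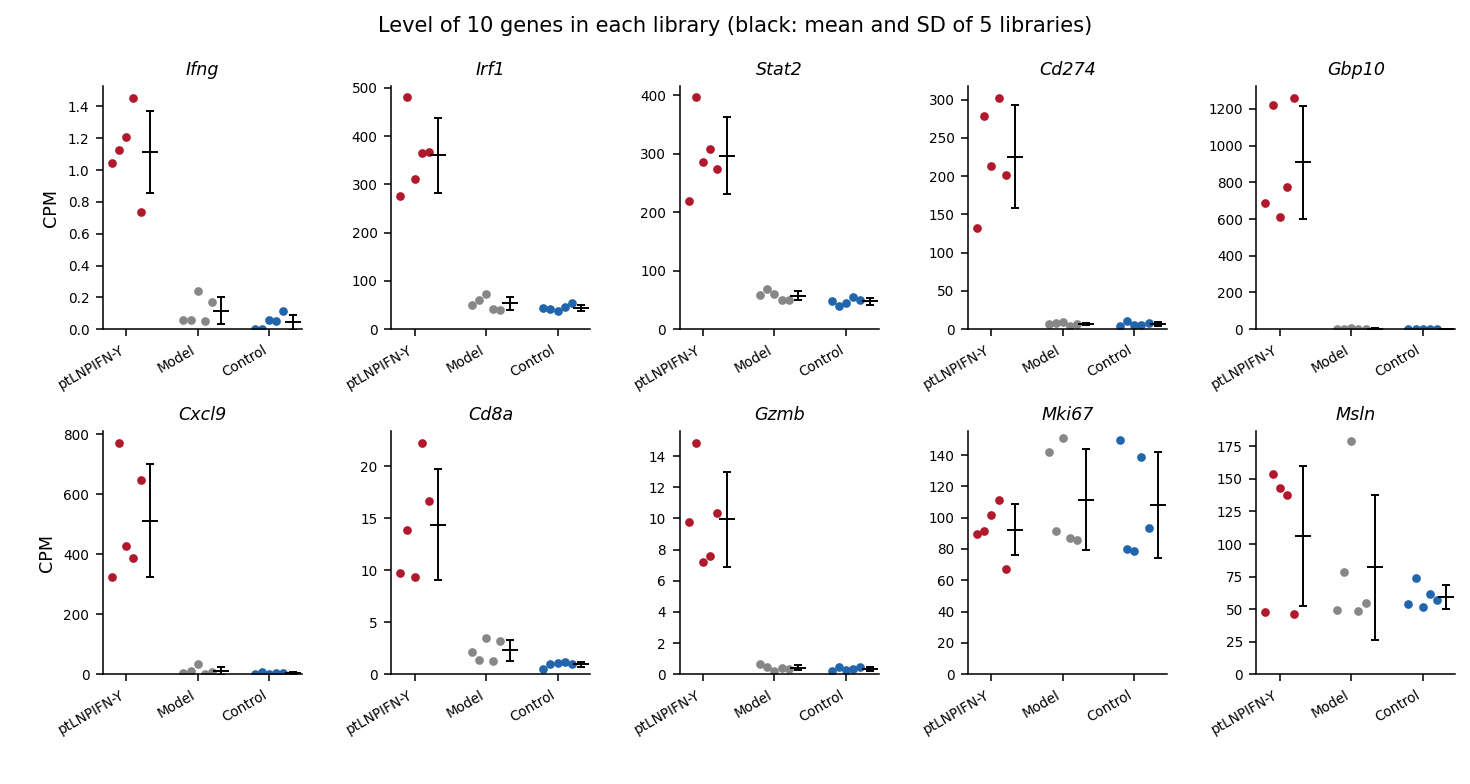
CPM of 10 genes in each ptLNPIFN-Y, Model and Control library (1 point per library); black marks give the mean and SD of the 5 libraries, and bars that would pass below 0 end there. Ifng, Irf1, Stat2, Cd274, Gbp10, Cxcl9, Cd8a and Gzmb are higher in every ptLNPIFN-Y library than in any Control library, while Mki67 and Msln overlap.

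Cell-autonomous defence GTPases were among the highest groups. All 10 tested guanylate-binding protein genes and all 9 tested immunity-related GTPase genes were higher, at median log2 fold changes of 5.09 and 5.599, against −0.02 for all tested genes. Summed over the list, guanylate-binding protein genes took 5835 to 11630 CPM in the ptLNPIFN-Y libraries and 278 to 359 CPM in the Control libraries. Gbp10 had 685, 1221, 608.5, 776 and 1260.0 CPM in ptLNPIFN-Y, against 0.654, 2.79, 1.21, 2.74 and 1.55 CPM in Control. The lowest ptLNPIFN-Y library was thus far above the highest Control library, and the log2 fold change was 8.99 ± 0.54 (edgeR adjusted p = 2.56e-09). Gbp2b averaged 143 ± 73.3 CPM in ptLNPIFN-Y and 0.295 ± 0.133 CPM in Control (SD, n = 5 each). Iigp1 and Tgtp1, GTPases that act on the membranes around intracellular parasites, had log2 fold changes of 6.17 ± 0.36 and 5.10 ± 0.22. Near-identical copies in these families, such as Tgtp1 and Tgtp2 or the Gbp genes, can share reads, so the split between family members is uncertain.

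Genes of the type I interferon response, many of which interferon-γ also induces, were all higher, 32 of 32 tested, at a median log2 fold change of 3.10. Zbp1, a sensor of Z-form nucleic acids that can start necroptosis, had 140, 342, 263, 284 and 260 CPM in ptLNPIFN-Y, against 2.40, 3.10, 2.80, 4.41 and 4.71 CPM in Control. The groups did not overlap, and the log2 fold change was 6.21 ± 0.45 (edgeR adjusted p = 2.25e-08). Oas3 averaged 85.5 ± 43.9 CPM in ptLNPIFN-Y and 0.855 ± 0.462 CPM in Control, and ptLNPIFN-Y library 1 held its lowest treated value, 24.7 CPM. Parp9, a partner of the interferon-induced ubiquitin ligase DTX3L, had a log2 fold change of 2.74 ± 0.21.

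Antigen presentation genes rose on both arms. Of 14 tested class I genes (heavy chains and B2m, their shared light chain), 12 were higher and 0 lower, and H2-Q2 and H2-Q10 were not past the test. The median log2 fold change was 3.14. H2-Q4, a class Ib heavy chain, had 569, 660, 563.5, 567 and 568 CPM in ptLNPIFN-Y and 34.1, 54.5, 31.8, 44.1 and 42.3 CPM in Control. Its spread was narrow in both groups, and its log2 fold change was 3.82 ± 0.18 (edgeR adjusted p = 3.43e-10). B2m had 3851 to 6078 CPM over the ptLNPIFN-Y libraries and 297 to 756 CPM over the Control libraries. Of 14 peptide-processing genes 11 were higher, among them the transporter Tap1 with 4.34 ± 0.23 and the class I transactivator Nlrc5 with 4.41 ± 0.23 on the log2 scale. The general folding factors Pdia3, Calr and Canx were the members of that list not past the test. Heavy-chain genes are close copies, and the counting method may divide reads between them.

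On the class II arm 12 of 13 tested genes were higher, at a median log2 fold change of 4.12, and H2-Ob was not past the test. Ciita, the class II master regulator, had 105, 278, 322, 436 and 215 CPM in ptLNPIFN-Y, against 6.32, 7.11, 6.10, 7.74 and 7.46 CPM in Control. The Control values lay close together and far below the treated ones, with a log2 fold change of 5.29 ± 0.60 (edgeR adjusted p = 5.8e-06). H2-Eb2 had 11.1, 34.4, 51.9, 81.4 and 32.5 CPM in ptLNPIFN-Y and at most 0.516 CPM in any Control library. H2-DMa and H2-DMb2, which load peptides onto class II, had log2 fold changes of 4.34 ± 0.42 and 5.42 ± 0.56. Ciita was added after its values were seen, as were B2m, Socs1 and the receptor chains.

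Chemokine genes were higher for 15 of 19 tested and lower for 0, at a median log2 fold change of 2.45 that was 3.91 without Control library 5. Cxcl9 had 324.5, 772, 429, 389 and 649 CPM in ptLNPIFN-Y, against 1.09, 8.56, 1.43, 4.14 and 4.19 CPM in Control. The groups did not overlap, and the log2 fold change was 7.05 ± 0.80 (edgeR adjusted p = 5.77e-06). Ccl5, which attracts T cells and monocytes, averaged 36.1 ± 9.01 CPM in ptLNPIFN-Y and 1.49 ± 0.487 CPM in Control (SD, n = 5 each). The neutrophil attractants Cxcl1 and Cxcl5 were not past the test, nor were Cxcl12 and Ccl21a. Of 22 cytokine and receptor genes 14 were higher and 0 lower. Il18bp, the secreted inhibitor of IL-18, had 73.5, 140, 107, 92 and 113 CPM in ptLNPIFN-Y, against 7.52, 9.35, 9.07, 7.74 and 8.27 CPM in Control.

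Most lymphocyte genes were higher. In the lists used here, all 19 tested T cell genes and all 17 tested NK and cytotoxic genes were past the test, with median log2 fold changes of 3.67 and 3.63. T cell genes summed to 97.9 to 274 CPM in the ptLNPIFN-Y libraries, against 15.0 to 21.4 CPM in the Control libraries. Cd8a, the co-receptor of cytotoxic T cells, had 9.78, 13.9, 9.34, 22.3 and 16.7 CPM in ptLNPIFN-Y and 0.490, 0.972, 1.10, 1.18 and 0.976 CPM in Control. Its groups did not overlap, and the log2 fold change was 3.92 ± 0.39 (edgeR adjusted p = 1.18e-06). Gzmb, a killing protease, had 9.78, 14.9, 7.17, 7.59 and 10.3 CPM in ptLNPIFN-Y, against 0.218, 0.486, 0.275, 0.323 and 0.459 CPM in Control. Every treated value stood more than 7 CPM high while no Control value reached 0.5 CPM, and the log2 fold change was 4.80 ± 0.33 (edgeR adjusted p = 1.02e-08). The regulatory T cell factor Foxp3 had a log2 fold change of 4.86 ± 0.82 (edgeR adjusted p = 0.000413), chosen after its value was seen, and no Control library exceeded 0.304 CPM. The NK receptor Klrc1 and the chemokine receptor Cxcr3 had log2 fold changes of 3.04 ± 0.23 and 2.93 ± 0.29.

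B and plasma cell genes were higher for 10 of 12 tested, at a median log2 fold change of 2.87, but they varied more between the treated libraries. Jchain, which joins secreted IgM and IgA, had 57.9, 267, 142, 714 and 1191 CPM in ptLNPIFN-Y, against 11.01, 22.2, 14.01, 8.06 and 19.8 CPM in Control. ptLNPIFN-Y libraries 4 and 5 were high and library 1 low, with no overlap, and the log2 fold change was 4.98 ± 0.93 (edgeR adjusted p = 0.00106). Cd22, a B cell inhibitory receptor, averaged 13.9 ± 12.1 CPM in ptLNPIFN-Y and 1.85 ± 0.650 CPM in Control. With oviduct and follicle marker levels as covariates, 1 of the 12 genes remained past the test. The summed level of that list overlapped between the groups, at 386 to 1727 CPM in ptLNPIFN-Y and 381 to 486 CPM in Control. Xbp1 and Sdc1, which other secretory and epithelial cells also express, averaged 283 and 74.0 CPM in ptLNPIFN-Y and 239 and 149 CPM in Control, and neither was past the test.

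Among macrophage and monocyte genes 17 of 28 were higher and 1, Cd209a, was lower, at a median log2 fold change of 1.63. Ly6c2, a marker of inflammatory monocytes, had 27.2, 47.0, 30.1, 68.5 and 134 CPM in ptLNPIFN-Y, against 0.708, 1.03, 0.824, 1.34 and 2.64 CPM in Control. ptLNPIFN-Y library 5 was the highest, and the log2 fold change was 5.54 ± 0.60 (edgeR adjusted p = 3.09e-06). Ms4a4c, a monocyte membrane gene, had 4.14 ± 0.53. Cd209a, a lectin of monocyte-derived dendritic cells and some macrophages, had 1.35, 0.501, 0.241, 0.696 and 1.41 CPM in ptLNPIFN-Y and 2.29, 5.04, 3.08, 3.92 and 2.47 CPM in Control, with every treated library below every Control library. Genes used as markers of resident tissue macrophages were mixed. Timd4, a receptor for dying cells, was higher at 3.05 ± 0.68 (edgeR adjusted p = 0.00518), while Cd163, Lyve1 and Folr2 had log2 fold changes of 0.07 ± 0.65, 0.45 ± 0.50 and 1.18 ± 0.61 and were not past the test. These 4 genes and Cd209a were chosen after their values were seen.

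Dendritic cell genes were higher for 11 of 15 tested, at a median log2 fold change of 1.70. The cross-presenting subset marker Xcr1 had 12.4, 33.7, 19.95, 30.5 and 27.2 CPM in ptLNPIFN-Y, against 0.599, 1.22, 1.26, 1.13 and 1.21 CPM in Control. Clec9a, a receptor for dead-cell actin on the same cells, averaged 41.8 ± 9.74 CPM in ptLNPIFN-Y and 5.08 ± 0.846 CPM in Control (SD, n = 5 each). Both genes kept the groups apart, with log2 fold changes of 4.50 ± 0.40 and 3.04 ± 0.23. Of 6 tested neutrophil genes, 1 was higher, Csf3r, at 2.54 ± 0.46, and S100a8, S100a9, Cxcr2, Mmp8 and Mmp9 were not past the test. That count is near the 12.2% of all tested genes that were higher. Ly6g and 5 others did not pass the low-count filter.

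The inhibitory and costimulatory genes were higher for 16 of 20 tested and lower for 0, at a median log2 fold change of 2.76. Cd274, which encodes the PD-1 ligand PD-L1, had 132, 279, 213, 303 and 202 CPM in ptLNPIFN-Y, against 4.63, 10.1, 5.33, 5.16 and 7.52 CPM in Control. Every treated library was far above every Control library, with a log2 fold change of 5.11 ± 0.36 (edgeR adjusted p = 1.51e-08). Ido1, the tryptophan-degrading enzyme, had 4.37, 5.33, 14.5, 2.84 and 12.2 CPM in ptLNPIFN-Y and at most 0.182 CPM in Control, where 2 libraries were at 0. Pdcd1, the PD-1 receptor itself, had 3.07, 6.58, 5.91, 9.61 and 4.89 CPM in ptLNPIFN-Y, against 1.47, 1.34, 2.09, 3.23 and 4.82 CPM in Control. Its groups overlapped, and it was not past the test (log2 fold change 1.21 ± 0.49, edgeR adjusted p = 0.0917). Tigit, Icosl and Cd160 were the other members not past it. Tigit stood at 126 to 154 CPM in ptLNPIFN-Y and 140 to 168 CPM in Control, more than the summed T cell genes of any Control library. Ido1, Pdcd1 and Tigit were chosen after their values were seen.

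Complement and effector genes followed in smaller numbers. Of 15 complement genes 10 were higher and 1, Hc, was lower, against 12.2% and 5.39% of all tested genes. C4b, a component of the classical pathway, had 806, 1732, 525, 694 and 1641 CPM in ptLNPIFN-Y, against 55.5, 69.2, 64.5, 82.2 and 89.4 CPM in Control, and its groups were separate, with a log2 fold change of 3.90 ± 0.44 (edgeR adjusted p = 5.59e-06). Serping1, the C1 inhibitor, had 2.85 ± 0.27. Hc, which encodes C5, ran from 0.335 to 1.63 CPM in ptLNPIFN-Y and from 0.668 to 16.5 CPM in Control. With Control library 5 left out, or any 1 of ptLNPIFN-Y libraries 1, 2, 4 and 5, 0 complement genes were lower. Of 11 effector genes of nitric oxide, itaconate and oxidase chemistry 6 were higher and 0 lower. Cybb and Rac2, parts of the phagocyte oxidase, had log2 fold changes of 2.85 ± 0.41 and 2.73 ± 0.38, and Acod1, the itaconate enzyme, 5.38 ± 0.84. Nos2, the inducible nitric oxide synthase, had 49.9, 21.1, 21.9, 16.6 and 3.75 CPM in ptLNPIFN-Y, against 49.5, 22.96, 41.2, 44.5 and 63.0 CPM in Control. It overlapped between groups and was not past the test (log2 fold change −0.97 ± 0.52, edgeR adjusted p = 0.184). Acod1 and Nos2 were chosen after their values were seen, as was Hc.

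Cell death genes were higher for 23 of 33 tested and lower for 0, at a median log2 fold change of 1.13. Besides Zbp1, they included Xaf1, an antagonist of apoptosis inhibitors, which averaged 180 ± 59.3 CPM in ptLNPIFN-Y and 22.7 ± 5.74 CPM in Control (SD, n = 5 each). Mlkl, which forms the pores of necroptosis, had a log2 fold change of 3.25 ± 0.32 (edgeR adjusted p = 1.08e-06), and the pyroptosis caspase gene Casp4 had 2.79 ± 0.40 (edgeR adjusted p = 7.28e-05). The survival gene Mcl1 was higher too, at 0.88 ± 0.18 (edgeR adjusted p = 0.00256), while Bax, Bcl2 and Casp9 were among the 10 members not past the test. Mlkl, Casp4 and Mcl1 were chosen after their values were seen.

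**Figure D3:**
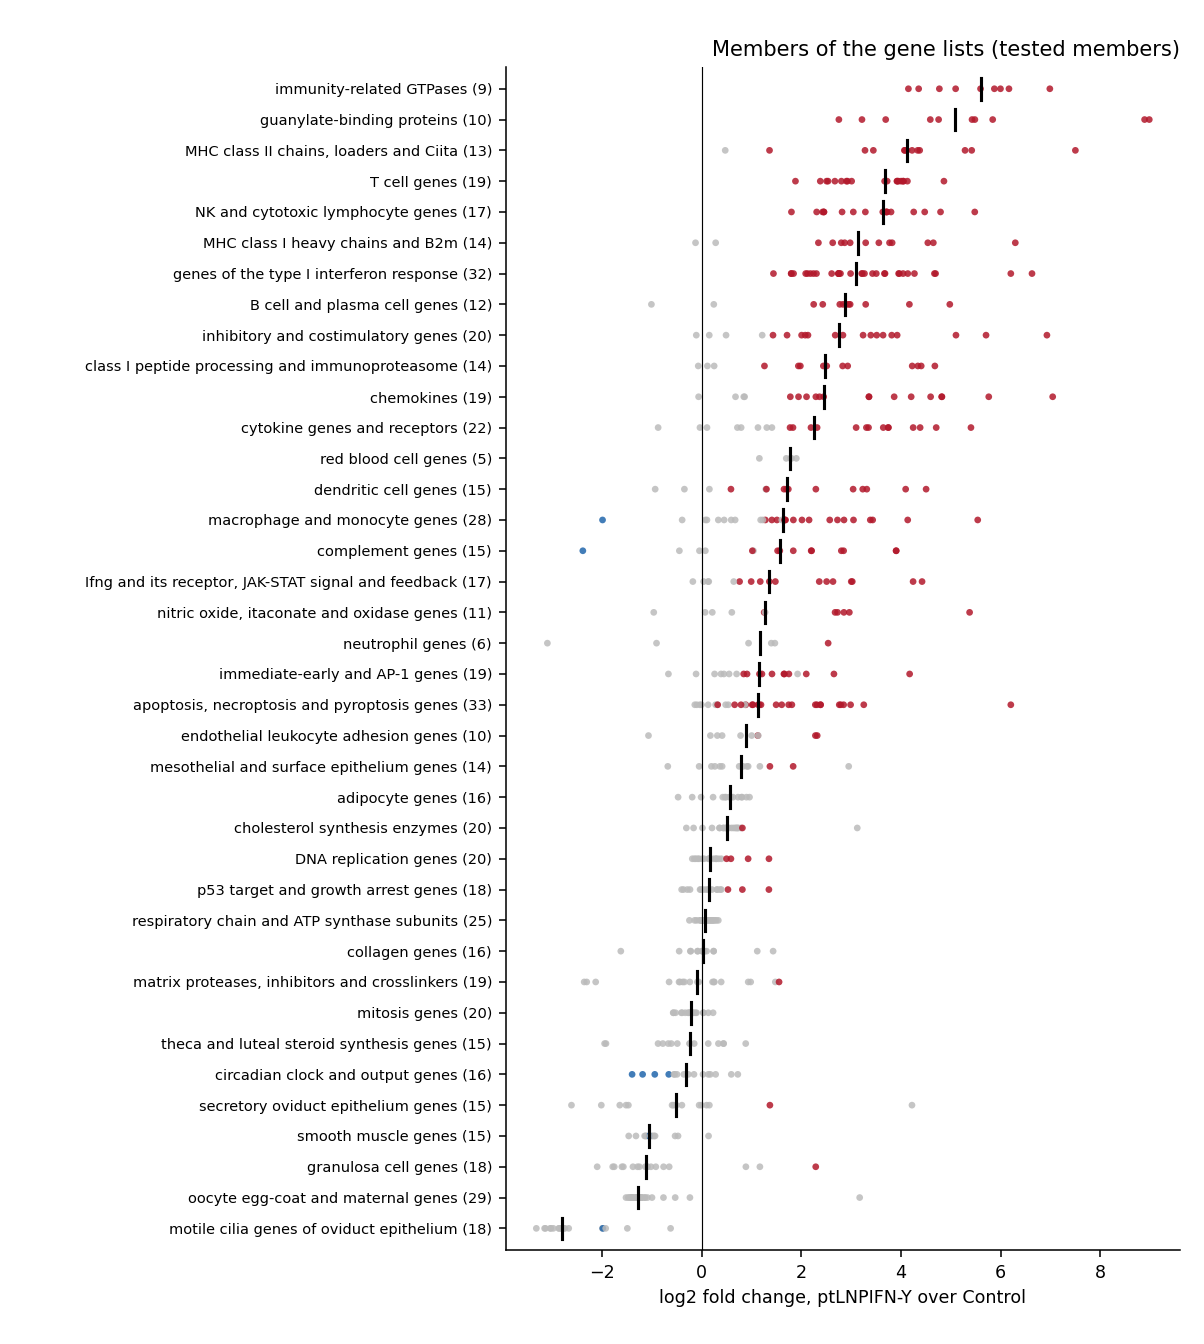
Log2 fold change of ptLNPIFN-Y over Control for each tested member of 38 gene lists, 1 point per gene, with the number of tested members in brackets; red points are past the test and higher, blue points past it and lower, grey points not past it, and the black bar is the list median. Interferon, antigen presentation and lymphocyte lists lie furthest right, and the motile cilia list, at −2.82, furthest left with 1 member past the test.

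Proliferation genes did not follow. Mki67, which marks cycling cells, had 89.7, 91.3, 102, 111 and 67.4 CPM in ptLNPIFN-Y, against 150, 80.2, 78.5, 139 and 93.4 CPM in Control. The groups overlapped (log2 fold change −0.23 ± 0.25, edgeR adjusted p = 0.511). Of 20 mitosis genes 0 passed the test in either direction, at a median of −0.22. The smallest p values there belonged to Bub1 and Ccnb2, with log2 fold changes of −0.57 ± 0.25 and −0.57 ± 0.24. Of 20 DNA replication genes 4 were higher, Rrm1, Pcna, Ccne1 and E2f1, at a median of 0.16. That count was 0 without any 1 of Control libraries 1 to 4 or of ptLNPIFN-Y libraries 2 to 5. Among p53 targets 3 of 18 were higher, Gadd45b, Btg2 and Cdkn1a, with log2 fold changes of 1.35 ± 0.26, 0.82 ± 0.21 and 0.53 ± 0.18. That count is near the share of all tested genes that were higher, 12.2%. With any 1 library left out other than ptLNPIFN-Y library 1, 2 were higher, and that list's median of 0.14 became −0.02 with library size alone.

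Immediate-early genes were higher for 11 of 19 tested, at a median log2 fold change of 1.16, and 7 were higher without Control library 1 or without ptLNPIFN-Y library 2. Junb, an AP-1 subunit, had 95.1, 152, 65.0, 48.2 and 82.8 CPM in ptLNPIFN-Y, against 18.6, 18.04, 18.6, 19.1 and 29.0 CPM in Control, with no overlap. Zfp36, which hastens decay of inflammatory mRNAs, had a log2 fold change of 1.75 ± 0.38. Of 16 circadian genes 4 were lower and 0 higher. Ciart and Hlf, a repressor and an output factor of the clock, had 1.74 to 3.81 and 9.52 to 15.4 CPM over the ptLNPIFN-Y libraries, against 3.98 to 9.29 and 21.8 to 34.7 CPM over the Control libraries. Per3 and Cry1 were the other members lower. Without any 1 of Control libraries 1 and 2 and ptLNPIFN-Y library 5, 2 circadian genes were past the test. Hours of tissue collection are not in the labels, and their part in these values was not tested.

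Mybphl and Pax3 were the genes furthest above Control by the rule given above, and neither had a count in any Control library. Mybphl (chr3:108364911-108380057), a myosin-binding protein gene known from heart muscle, had 58, 123, 767, 749 and 254 counts in ptLNPIFN-Y. Pax3 (chr1:78101267-78197136), a transcription factor of neural crest and muscle progenitors, had 29, 235, 303, 438 and 195. ptLNPIFN-Y library 1 was the lowest for both. Against a floor of 3 counts over the group, Mybphl was at least 728-fold higher and Pax3 at least 448-fold higher in ptLNPIFN-Y (edgeR adjusted p = 0.00186 and 0.00365). Both were also counted in the Model group, whose labels name no agent. Mybphl had 12, 79, 566, 31 and 2 counts and Pax3 7, 36, 505, 14 and 7 in the Model libraries. Model library 3 held most of the counts of both genes, and neither passed the test between Model and Control (edgeR adjusted p = 0.842 for each).

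AA467197, a small mouse gene known as an interferon- and inflammation-responsive transcript in macrophages, also separated the groups, at 14.2, 132, 147, 221 and 107 CPM in ptLNPIFN-Y, against 0.0545, 0.182, 0.055, 0.323 and 1.84 CPM in Control. In the Model libraries it had 23, 223, 2016, 78 and 38 counts, most of them in Model library 3. Its log2 fold change was 5.855 ± 1.36 in Model over Control and 2.12 ± 1.05 in ptLNPIFN-Y over Model, neither past the test. A further 3 genes had at most 3 counts over the whole Control group and at least 10 in every ptLNPIFN-Y library. They were chosen after their values were seen. Cngb3, a channel subunit of cone photoreceptors, had 106, 139, 10, 32 and 167 counts in ptLNPIFN-Y and 3 in Control in all, with at most 1 in any Model library. Gpr33, a chemoattractant-type receptor gene, had 25 to 35 counts in ptLNPIFN-Y libraries. Defb42, a defensin gene, had 13 to 26 counts in ptLNPIFN-Y libraries and 0 in every Control library, and 45 in Model library 3. No gene met the same rule in the other direction.

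Among called, non-overlapping genes at a mean log2 CPM of at least 1, Per3, Dsc2, Aqp9, Jun and Pappa had the largest Model share. That share is the Model-over-Control log2 fold change divided by the ptLNPIFN-Y one. None of the 5 was past edgeR's test between Model and Control. Aqp9 had 21, 23, 858, 21 and 33 counts in the Model libraries, against 12 to 27 in Control. Dsc2, a desmosomal cadherin gene, had log2 fold changes of 1.57 ± 0.48 in ptLNPIFN-Y over Control and 1.90 ± 0.48 in Model over Control. Its Model counts were 195, 1502, 375, 195 and 1010, against 110 to 200 in Control. The call of Dsc2 was lost when any Control library was left out. Pappa, a protease that frees insulin-like growth factors, had 14.02, 42.9, 24.6, 43.5 and 25.6 CPM in ptLNPIFN-Y, against 4.47, 3.22, 3.79, 5.22 and 4.36 CPM in Control. Its Model mean was 33.1 ± 40.0 CPM (SD, n = 5), so the Model libraries spread widely. Among ovarian surface and mesothelial genes 2 of 14 were higher, Muc16 and Rspo1, a share near the 12.2% of all tested genes, and the call of Rspo1 was lost without any 1 library other than ptLNPIFN-Y libraries 1 and 5. Msln, a surface glycoprotein of mesothelium and many ovarian tumours, had 48.1, 154, 143, 138 and 46.4 CPM in ptLNPIFN-Y, against 53.7, 74.2, 51.5, 61.3 and 56.8 CPM in Control. Libraries 2, 3 and 4 were high, libraries 1 and 5 lay below the Control range, and Msln was not past the test (log2 fold change 0.83 ± 0.52, edgeR adjusted p = 0.247). Muc16, the gene of the CA125 antigen, had 40.0, 75.0, 80.1, 79.5 and 27.4 CPM in ptLNPIFN-Y and 21.2 to 27.8 CPM in Control.

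**Figure D4:**
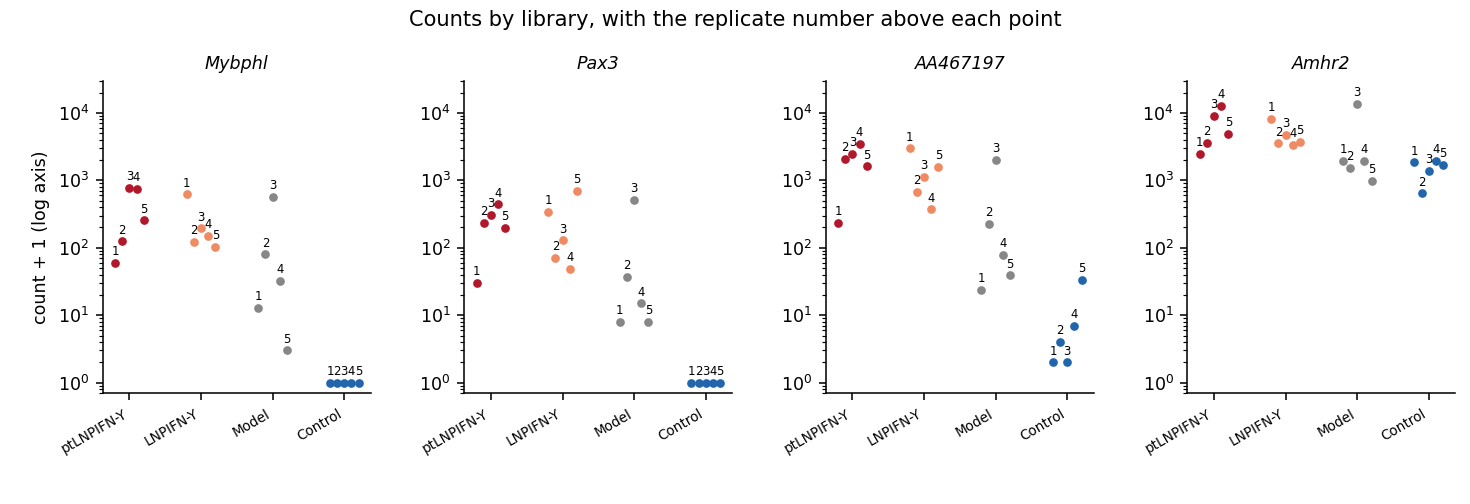
Counts plus 1 (log axis) of Mybphl, Pax3, AA467197 and Amhr2 in each library of the 4 groups, with the replicate number above each point. Mybphl and Pax3 are at 0 counts in all 5 Control libraries, and Model library 3 is the highest Model library for all 4 genes.

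The genes furthest below Control by the same rule, which leaves out genes under that level, were Tmem132c, Ano5, Chrna4, Slc16a11, Fcrls, B3galt5, Kcna2, Tmem150c, Fat3 and Kcnf1. Their log2 fold changes lay between −2.83 and −2.28. Fat3, an atypical cadherin gene, had 1.72, 0.940, 2.17, 0.696 and 1.94 CPM in ptLNPIFN-Y, against 7.63, 11.7, 8.24, 5.54 and 4.76 CPM in Control. All treated values lay below all Control values, and the log2 fold change was −2.34 ± 0.44 (edgeR adjusted p = 0.00121). Fcrls, a gene known from microglia and some tissue macrophages in mouse, had 1.97, 3.39, 0.663, 1.14 and 4.15 CPM in ptLNPIFN-Y and 14.6, 10.3, 12.5, 14.6 and 19.3 CPM in Control (log2 fold change −2.66 ± 0.72, edgeR adjusted p = 0.018). Its adjusted p was 0.0551 without ptLNPIFN-Y library 4. Chrna4, Kcna2 and Kcnf1 encode a nicotinic receptor subunit and potassium channel subunits. Chrna4 had 1.72, 1.38, 3.92, 0.316 and 0.536 CPM in ptLNPIFN-Y, against 13.2, 11.4, 10.8, 11.1 and 7.35 CPM in Control. The calls of Ano5, B3galt5, Kcna2, Kcnf1, Tmem150c and Chrna4 were lost when any of several single libraries, treated or Control, was left out. Those calls, and those of Tmem132c and Slc16a11, also ended with oviduct and follicle marker levels as covariates. In that fit Ano5 had a log2 fold change of −0.78, Kcna2 −0.37 and Chrna4 −1.15, while Fcrls and Fat3 stayed past the test.

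Markers of follicle cells and of adjoining oviduct leaned lower in the treated libraries, but few single genes passed the test. The list of ovarian surface and mesothelial genes did not lean lower, at a median log2 fold change of 0.79. Of 18 tested motile cilia genes 1, Tekt2, was lower and 0 higher, near the 5.39% of all genes, at a median log2 fold change of −2.82, and the summed level was 39.2, 101, 601, 114 and 69.7 CPM in ptLNPIFN-Y, against 884, 1867, 1090.0, 559 and 174 CPM in Control. ptLNPIFN-Y library 3 was within the Control range. Without it the median was −5.55 and 16 members were lower. The call of Tekt2 was lost without any 1 of the other libraries save Control library 5. Ovgp1, the oviduct glycoprotein, had 3.01, 64.3, 3733, 3.23 and 1163 CPM in ptLNPIFN-Y and 6343, 14560, 4460.0, 4019 and 1085 CPM in Control, and with 0 of the 15 secretory oviduct genes lower it was not past the test. Library 3 and library 5 of the treated group were high. The secretory list's median of −0.51 was −1.99 without ptLNPIFN-Y library 3 and −0.02 without Control library 2. Its 1 member past the test, Muc16, was higher, against 12.2% of all tested genes.

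Follicle gene medians were below 0 too, with no member past the test and lower. Granulosa genes had a list median of −1.12, with 0 of 18 lower and 1, Amhr2, higher, and oocyte genes −1.28, with 0 of 29 lower or higher. Of all tested genes 5.39% were lower and 12.2% higher. Summed oocyte genes had 844, 401, 370.5, 270.4 and 99.7 CPM in ptLNPIFN-Y, against 781.5, 388, 924, 995 and 971 CPM in Control. ptLNPIFN-Y library 1 lay within the Control range and library 5 lay lowest. Without ptLNPIFN-Y library 1 both medians were −2.001 and −2.04, with 3 granulosa and 2 oocyte genes lower. Amhr2, the receptor for anti-Müllerian hormone, went the other way, with 152, 227, 544, 792 and 323 CPM in ptLNPIFN-Y, against 101, 38.8, 75.4, 105 and 97.5 CPM in Control (log2 fold change 2.29 ± 0.66, edgeR adjusted p = 0.0243). ptLNPIFN-Y libraries 3 and 4, the highest for Mybphl, were the highest, and the call was lost without ptLNPIFN-Y library 4, Control library 2 or Control library 3. Of 15 steroid synthesis genes 0 passed the test, at a median of −0.24.

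Smooth muscle genes had a median of −1.06, with 1 of 15 lower (5.39% of all tested genes were lower), the myosin kinase gene Mylk. Its call was lost without any 1 library other than ptLNPIFN-Y library 2. For 6 of the 15 genes every treated library was below every Control library, against 5.65% of all tested genes. Their sum was 1191, 2040.0, 1512, 336 and 2701 CPM in ptLNPIFN-Y, against 2609 to 3015 CPM in Control. Adipocyte, collagen, respiratory chain and cholesterol synthesis lists gave 0 lower members and 1 higher in all, the sterol isomerase gene Ebp, and red blood cell genes had a median of 1.78 with 0 of 5 past the test, 0.79 without ptLNPIFN-Y library 5. Summed adipocyte genes varied widely within both groups, from 2040 to 39530 CPM in ptLNPIFN-Y and from 3161 to 29280 CPM in Control. Of 10 endothelial adhesion genes 3 were higher, Vcam1, Icam1 and Icam2, with log2 fold changes of 2.28, 2.32 and 1.13. Among 19 matrix and matrix protease genes 1 was higher, Mmp13, against 12.2% of all tested genes. With the mean levels of the oviduct lists and of the follicle lists as covariates, 812 genes were higher and 103 lower, against 1916 and 847 without them. Calls that ended in that fit included those of Pappa, Muc16, Cd22, Zfp36, Btg2, Hlf, Ciart, Tmem132c and Slc16a11. Muc16 is itself in the secretory oviduct list, so it was partly adjusted for itself. The same holds for Amhr2 and Tekt2, whose calls also ended and which belong to the granulosa and cilia lists. In the same fit 9 macrophage, 5 dendritic cell, 9 chemokine and 2 immediate-early genes were higher and 0 circadian genes lower. Beyond these counts, the part of tissue composition in the gene differences was not tested.

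**Figure D5:**
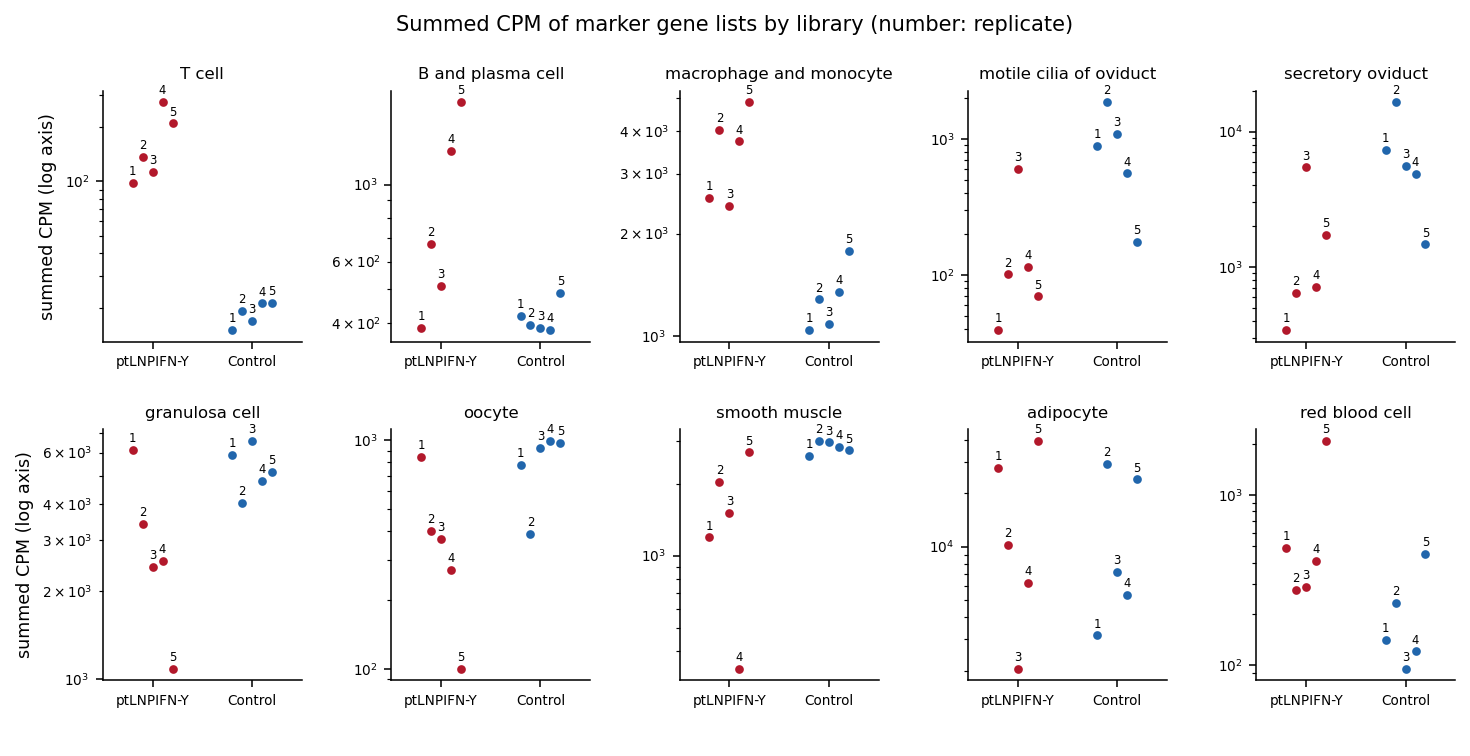
Summed CPM (log axes that differ between panels) of 10 marker lists in each ptLNPIFN-Y and Control library, with the replicate number above each point. T cell and macrophage sums are higher in every ptLNPIFN-Y library, the motile cilia sum is within the Control range in ptLNPIFN-Y library 3 alone, and the oocyte sum is lowest in ptLNPIFN-Y library 5.

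Split into steps, the combined difference was larger between ptLNPIFN-Y and Model than between Model and Control by calls and by medians over called genes. Against Model, 951 genes were higher in ptLNPIFN-Y and 149 lower, which is 6.05% and 0.948% of the genes tested. Model library 3 weighed on these counts, which were 1578 and 685 without it. Between Model and Control 0 genes passed edgeR's test in either direction (0%), while 772 had an unadjusted p under 0.05 and DESeq2 called 27 higher and 2 lower. For the 1916 genes higher in ptLNPIFN-Y than in Control, the median log2 difference was 0.88 over Model and 0.31 in Model over Control. For the 847 lower genes it was −0.49 over Model and −0.16 in Model over Control. Some gene lists went the other way, such as the immediate-early and circadian lists. Their median log2 differences were 0.335 and 0.002 over Model, and 0.81 and −0.28 in Model over Control. These comparisons share libraries with the main one, so the values are only set side by side. Cd274 showed 4.998 over Model and 0.11 in Model over Control, Gbp10 8.03 and 0.96, H2-Eb2 3.78 and 3.72, and Pax3 1.14 and 9.86. The Model counts of H2-Eb2 were 6, 25, 206, 18 and 2, so Model library 3 held most of them, as it did for Pax3.

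Between the 2 particle groups, 0 genes passed edgeR's test (0%), 481 had an unadjusted p under 0.05, and DESeq2 called 0. The smallest edgeR adjusted p was 0.9997. For the genes higher than Control the median log2 difference of ptLNPIFN-Y over LNPIFN-Y was 0.09, and for the lower genes −0.12. Irf1 averaged 360 ± 77.9 CPM in ptLNPIFN-Y and 296 ± 92.1 CPM in LNPIFN-Y, and Cd274 226 ± 67.6 and 174.5 ± 90.9 CPM in those groups (SD, n = 5 each). Rgsl1, Insc, Neto1, Ak1 and Cyp26b1 had the smallest p values in that comparison. Cyp26b1, which degrades retinoic acid, averaged 4.37 ± 0.861 CPM in ptLNPIFN-Y and 10.53 ± 1.75 CPM in LNPIFN-Y. A p that misses the threshold does not show that the particles act alike.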

How the data were processed

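The deposited table held expected counts per gene for 20 ovary libraries, made by the authors from oligo(dT)-selected RNA. HISAT2, StringTie, RSEM and DESeq2 and the build GRCm38.p6 come from the submitters' processing notes, and versions, strand and annotation are not given in the sources used here. Without strand information, reads of a gene and its antisense partner cannot be told apart.

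The deposited expected counts were rounded to whole numbers. Of their values 9.85% had decimals. The table has 20960 genes, and 26 symbols that a spreadsheet had turned into dates were restored through gene IDs. Genes were kept by filterByExpr (minimum count 10), scaled by TMM and fitted over all 4 groups in one quasi-likelihood model (edgeR 4.0.16, R 4.3.3, 16 residual degrees of freedom), with Benjamini-Hochberg adjustment over 15723 genes and a threshold of 0.05. DESeq2 1.42.0 and limma 3.58.1 served as alternatives. The fits were tested on simulated data. CPM values are TMM-scaled. Coordinates are from the deposited table (GRCm38.p6).

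The members and the gene lists were chosen with earlier results of these data known. Genes named were 9 chosen ones, the 10 highest and 10 lowest by log2 fold change among called genes that did not overlap and averaged at least 1 in log2 CPM, the 2 smallest p values of each list, the 5 with the largest Model share, and the 5 smallest p values against LNPIFN-Y. Other genes named were chosen after their values were seen. A chosen gene is not reported here. Same-numbered ptLNPIFN-Y and Control libraries did not deviate together, with correlations from −0.318 to 0.273, so the numbers were not used as pairs. Alternatives were other scalings, filters, tools, samples, a replicate block, tissue covariates, a fold threshold and each library left out. Depth was even over libraries. Low counts limit genes such as Ifng, and errors were also wide for genes that varied between libraries, such as AA467197 (standard error 1.45).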

Additional observations from a re-analysis of the deposited data

Results flagged for a closer look

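Among 280 sets of 5 values (141 genes in the ptLNPIFN-Y and Control groups, where each value set had a spread), 30 held a library whose gap to the nearest other was more than 0.71 of the whole range. Chance gives about 1 in 20 such sets where values are independent and normally distributed. That rate need not hold here, since many of these genes were named after their values were seen. The sets also share libraries.

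Control library 5 was far from the other Control libraries for 11 genes. It was high for AA467197 at 1.84 CPM (others at most 0.323), Acod1 at 0.631 CPM, Cxcl5 at 3.85 CPM, Cxcr2 at 1.38 CPM, Gadd45b at 21.6 CPM, H2-Eb2 at 0.516 CPM, Hc at 16.5 CPM (others at most 2.96), Junb at 29.0 CPM, S100a8 at 1.84 CPM and S100a9 at 3.39 CPM (others at most 0.218). It was low for Dsc2 at 6.31 CPM. Control library 2 was high for Bcl2 at 35.2 CPM, Jak2 at 134 CPM, Kcna2 at 35.4 CPM (others at most 12.1) and Tmem132c at 18.8 CPM, and low for Cd22 at 0.729 CPM. Control library 1 was low for Xcr1 at 0.599 CPM.

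In the treated group, ptLNPIFN-Y library 3 was high for H2-Q2 at 9.16 CPM (others at most 1.77), Mmp8 at 3.50 CPM, Slc16a11 at 3.44 CPM, Tekt2 at 4.10 CPM and Tmem132c at 1.99 CPM. Library 5 of that group was high for S100a8 at 2.68 CPM, Ubd at 218 CPM (others at most 89.8) and Xbp1 at 377 CPM. Library 2 was high for Cxcl5 at 7.90 CPM and H2-Q4 at 660.0 CPM and low for Rgsl1 at 0.188 CPM. Library 4 was high for Ccne1 at 8.98 CPM and library 1 for Cd160 at 3.57 CPM.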

How the results depend on the processing

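The counts of genes higher and lower in ptLNPIFN-Y than in Control, 1916 and 847, became 2418 and 1712 with DESeq2, 1682 and 1423 with upper-quartile scaling, 1491 and 2241 with library size alone, and 2108 and 1299 in a fit of those 2 groups. They were 3443 and 2646 with sample quality weights, 812 and 103 with tissue covariates, and 1189 and 301 with a log2 fold change of at least 1. Against Model, the counts of 951 and 149 became 1278 and 627 with DESeq2, 954 and 226 with upper-quartile scaling, 900 and 731 with library size alone, 670 and 44 with 2 groups, 1946 and 766 with quality weights, and 730 and 49 with the fold threshold. With 1 library left out, 1300 to 2312 genes were higher and 303 to 1417 lower than Control, and 713 to 1578 and 57 to 685 than Model. Model against Control gave 27 and 2 with DESeq2 and 0 in the other fits, and ptLNPIFN-Y against LNPIFN-Y gave 0 in every fit. The cause of these shifts was not tested.

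With the replicate block, 1582 genes were higher and 736 lower than Control, and 797 and 79 than Model. In the same fit 12 motile cilia genes were lower. Same-numbered libraries correlated at −0.16, −0.318, 0.273, 0.152 and 0.049, so the numbers are no evidence of pairing. Of 80 named genes past the test, 54 stayed past it under every alternative fitted for them (19 each, 18 for Rgsl1, the fold threshold not among them), 24 were lost with tissue covariates, 9 with the block and 0 with DESeq2. Col14a1 reversed to −0.02 and Pnpla2 to −0.42 with tissue covariates, and neither was past the test. Genes under a few CPM are limited by depth, and a gene at 0 allows up to 3 counts.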

Other observations

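Gene families grouped by symbol, each with at least 8 tested members and picked after their values were seen, showed further groups. All 10 apolipoprotein L genes and all 8 Gimap genes, GTPases of lymphocytes, were higher in ptLNPIFN-Y, with median log2 fold changes of 4.16 and 1.499, as were 10 of 12 Toll-like receptor genes at 1.91. Copies within the apolipoprotein L family can share reads. Proteasome genes moved less: 6 of 8 alpha subunit genes (Psma), 8 of 10 beta subunit genes (Psmb) and 7 of 14 regulatory non-ATPase subunit genes (Psmd) were higher, at medians of 0.38, 0.40 and 0.25. With library size alone the counts were 4, 5 and 2, with the same direction of the medians.

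In the other direction, 5 of 14 intraflagellar transport genes (Ift) and 4 of 8 Bardet-Biedl syndrome genes (Bbs), both of cilia, were lower, at medians of −0.52 and −0.48. Those counts were 7 and 5 with library size alone. Summed motile cilia markers, given above, were lower in 4 of the 5 ptLNPIFN-Y libraries than in any Control library, and their part in these values was not tested.

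The share of genes higher in ptLNPIFN-Y ranged over the autosomes and the X from 7.44% of 403 tested genes on chromosome 18 to 19.8% of 530 on chromosome 19, against 12.2% of all tested genes. The share lower was 8.19% and 3.77% on those chromosomes, and on chromosome 15, where the apolipoprotein L genes lie, 17.9% of 627 were higher and 2.39% lower.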
